A study of Mus musculus with 3 samples.

Results

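Maf, Rora, Irf4 and Runx1 encode transcription factors that take part in the program of Th17 cells, the helper T cells that secrete IL-17 cytokines. These 4 genes, of 19935 with a probe set annotated to a single symbol, were read by name, and each had 1 such probe set. Messenger RNA was measured on 3 arrays, 1 for each culture of naive CD4+ T cells, which are helper T lymphocytes that have not yet met antigen. The cells came from Wild type C57BL/6 mice at 8 weeks of age and were cultured with IL-21, with IL-6 + TGFb1, or with medium and Vehicle. IL-21 and IL-6 are cytokines that signal through STAT3, and IL-6 given with TGFb1 is commonly used to make Th17 cells. The labels state neither the doses, the time in culture, any stimulation of the T cell receptor, nor how many mice were used. With 1 array per culture there was no replicate, so no difference has an error or a test, and every difference compares 2 arrays.

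The values are probe set intensities on a linear scale, which were turned into log2(intensity + 1) before subtraction. A difference of 1 on this scale is a 2-fold difference in (intensity + 1). A gene was compared if its highest intensity reached 187, the median of all values, which kept 11003 genes, all 4 transcription factor genes among them. Probe set error gives the only scale available for small differences. In the 474 genes with 2 bright probe sets, the gap between both had a 95th percentile of 0.41 in IL-21 minus medium, 0.37 in IL-6 + TGFb1 minus medium and 0.35 in IL-21 minus IL-6 + TGFb1. These gaps leave out the spread between cultures.

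Th17 differentiation rests on STAT3-activating cytokines and TGF-beta, which together switch on nuclear receptors of the ROR family. In this scheme IRF4, paired with BATF and JUN proteins, opens chromatin early, c-Maf (the product of Maf) is a basic leucine zipper factor that acts on cytokine genes such as Il21, Il10 and Il4, and RUNX1 binds DNA with its partner CBFb and can act with ROR proteins at the Il17a locus. RORa, the product of Rora, is a nuclear receptor that binds DNA mostly as a monomer and raises IL-17 production.

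Maf and Rora were higher with IL-6 + TGFb1 than with medium and past 2-fold, whereas Irf4 and Runx1 were within 2-fold of medium in both treated cultures. With IL-21 none of the 4 genes reached 2-fold over medium, and Rora came closest. Between the treated cultures, Maf and Rora were past 2-fold lower with IL-21. Each deposited intensity was highest with IL-6 + TGFb1 and lowest with medium. However, the steps of Irf4 and Runx1 were smaller than the 95th percentile of the gap between probe sets. So was the step of Maf from medium to IL-21.

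Maf had an intensity of 296 with IL-21, 1865 with IL-6 + TGFb1 and 273 with medium. The IL-6 + TGFb1 culture alone was high, and the IL-21 and medium cultures lay side by side. In IL-6 + TGFb1 minus medium, the log2 difference of Maf was 2.77, or 6.81-fold, the place 8 from the highest of 11003 genes. In IL-21 minus medium it was 0.12, or 1.08-fold, and 45.5% of the compared genes had a difference of larger size. In IL-21 minus IL-6 + TGFb1 it was -2.65, or 6.28-fold lower with IL-21, and only 1 compared gene, the cytokine gene Il17f, was lower still.

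Rora had an intensity of 475 with IL-21, 1036 with IL-6 + TGFb1 and 298 with medium, so that the 3 cultures formed separate steps. In IL-21 minus medium its difference was 0.67, or 1.59-fold, which is short of 2-fold but above the 95th percentile of the probe set gap, and 1.68% of the compared genes had a difference of larger size. In IL-6 + TGFb1 minus medium it was 1.79, or 3.46-fold, the place 21 from the highest. In IL-21 minus IL-6 + TGFb1 it was -1.12, or 2.18-fold lower with IL-21. Maf and Rora therefore differed in the IL-21 culture, where Rora stood apart from medium by more than the probe set gap and Maf did not.

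Irf4 was bright in every culture, with an intensity of 5628 with IL-21, 5757 with IL-6 + TGFb1 and 5527 with medium. Its differences were 0.03 in IL-21 minus medium, 0.06 in IL-6 + TGFb1 minus medium and -0.03 in IL-21 minus IL-6 + TGFb1. All 3 were below the median probe set gap, which ran from 0.06 to 0.07, but under median centring the differences from medium were 0.092 and 0.082, above it, and the last one changed sign. IRF4 is known as an early product of T cell receptor stimulation, and the level of its transcript did not separate these cultures. The order of its levels is therefore not resolved.

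Runx1 had an intensity of 1149 with IL-21, 1299 with IL-6 + TGFb1 and 1011 with medium, a shallow gradient. Its differences were 0.18 in IL-21 minus medium, or 1.14-fold, and 0.36 in IL-6 + TGFb1 minus medium, or 1.28-fold. In IL-21 minus IL-6 + TGFb1 the difference was -0.18. All were smaller than the 95th percentile of the probe set gap, except that the IL-6 + TGFb1 minus medium difference came to 0.384, just past its limit of 0.373, under median centring. The alternatives ran from 0.09 to 0.25 in IL-21 minus medium. A larger size than that of Runx1 was shown by 9.85% of the compared genes in IL-6 + TGFb1 minus medium. The RefSeq tables list 4 curated transcripts of Runx1, which start at 2 promoters, and its single probe set does not tell them apart.

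**Figure D1:**
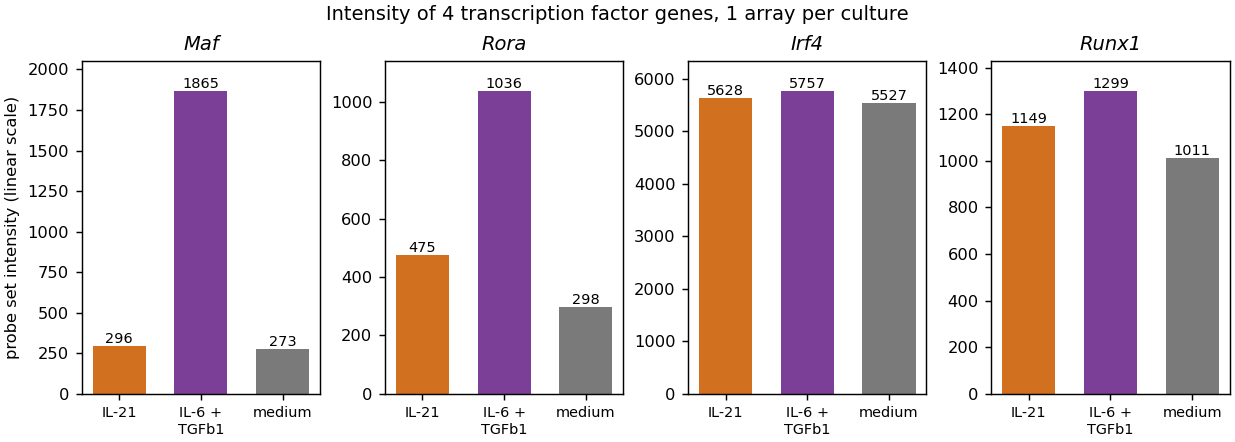
Probe set intensity on a linear axis from 0 for Maf, Rora, Irf4 and Runx1, each panel with its own axis, in the IL-21, the IL-6 + TGFb1 and the medium culture. Each bar is 1 array and carries no error bar; Maf is high with IL-6 + TGFb1 alone (1865), Rora forms 3 steps, Runx1 a shallow gradient, and Irf4 lies between 5527 and 5757.

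Few genes moved this far in any of the comparisons. In IL-21 minus medium 0.482% of compared genes were past 2-fold on the higher side and 0.109% on the lower side, and of the 4 transcription factor genes 0 were in either class. In IL-6 + TGFb1 minus medium 0.673% were past 2-fold on the higher side, against 2 of the 4 genes, and 0.364% on the lower side. In IL-21 minus IL-6 + TGFb1 0.191% were past 2-fold on the lower side, against the same 2 genes, Maf and Rora, and 0.273% on the higher side. Any 2 of these comparisons share an array, so they are not independent of each other. The 4 genes were chosen with earlier results of these data known, so their counts beside these shares are not a test. The median difference of all compared genes was 0.04, 0.02 and 0.00 in the order of comparisons just given. The rising order of medium, IL-21, then IL-6 + TGFb1 was held by Maf, Rora and Runx1, by Irf4 except under median centring, and by 20.9% of the compared genes.

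**Figure D2:**
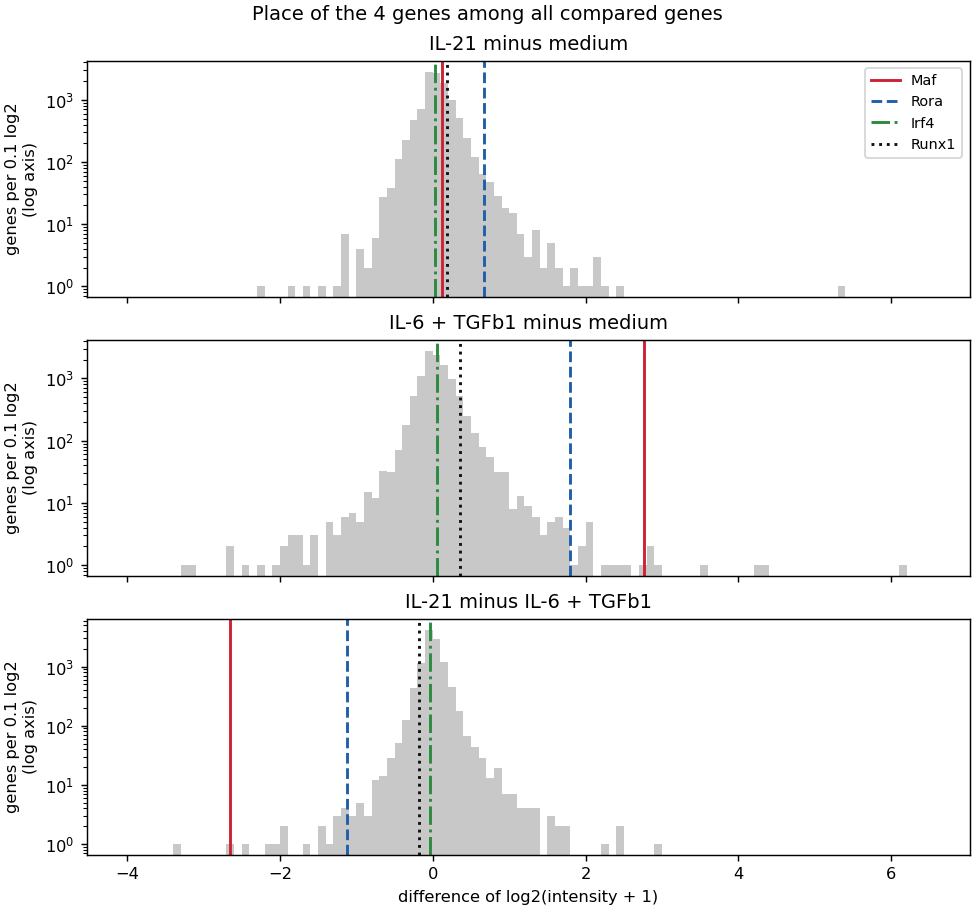
Histograms of the difference of log2(intensity + 1) over all 11003 compared genes in the 3 comparisons (number of genes per bin on a log axis), with a line for each of the 4 genes. Maf (2.77) and Rora (1.79) lie in the right tail with IL-6 + TGFb1, while Irf4 and Runx1 lie in the central mass of each histogram.

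The relatives of these 4 genes showed how far the differences extended within each family. Of 23 other genes listed for the 4 families, 19 were measured and 16 compared, and 0 of these reached 2-fold in any comparison. In the MAF family the small MAF genes Mafg and Mafk, whose proteins lack a transactivation domain, had differences of -0.11 and -0.03 in IL-6 + TGFb1 minus medium and of -0.08 and 0.02 in IL-21 minus medium. Mafa, a large MAF gene like Maf and best known from pancreatic beta cells, had an identical intensity of 284 in both treated cultures and 323 with medium. The related repressor genes Bach1 and Bach2 differed from medium by 0.01 and 0.18 with IL-21 and by 0.01 and 0.25 with IL-6 + TGFb1. Maff and Nrl were below the brightness limit. Maf was thus the only compared gene of this family past 2-fold.

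In the nuclear receptor group, Nr1d1 and Nr1d2 encode the REV-ERB proteins, which bind the same DNA elements as ROR proteins and repress from them. Nr1d1 had an intensity of 340 with IL-21, 437 with IL-6 + TGFb1 and 338 with medium, a difference of 0.37 in IL-6 + TGFb1 minus medium and of 0.01 in IL-21 minus medium. Nr1d2 had differences of 0.24 with IL-21 and 0.21 with IL-6 + TGFb1. Both were well short of the 1.79 of Rora. Rorb, another ROR gene, was dim on all arrays, at 61.5 with IL-21, 61.5 with IL-6 + TGFb1 and 64.2 with medium.

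Among the IRF genes, which encode regulators of interferon and lymphocyte genes, the member farthest from medium was Irf8, known from dendritic and B cells. Its intensity was 3977 with IL-21, 4058 with IL-6 + TGFb1 and 5668 with medium. The differences of Irf8 were -0.51 in IL-21 minus medium and -0.48 in IL-6 + TGFb1 minus medium, both larger than the 95th percentile of the probe set gap and both short of 2-fold. Irf7, a driver of type I interferon genes, had -0.20 with IL-21 and -0.34 with IL-6 + TGFb1. Irf1 had -0.13 and -0.21 in the same order, and its dimmer probe set gave 0.06 and 0.00. Irf2, Irf3, Irf5 and Irf9 were within 0.11 of medium in both treated cultures.

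Runx3, the RUNX gene associated with Th1 and CD8 T cells, had an intensity of 2098 with IL-21, 2055 with IL-6 + TGFb1 and 1896 with medium, with differences of 0.15 and 0.12 from medium. Cbfb, which encodes the common partner of RUNX proteins, had 2414 with IL-21, 2334 with IL-6 + TGFb1 and 2377 with medium. Its differences of 0.02 and -0.03 were below the median probe set gap. No gene of this group approached 2-fold.

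**Figure D3:**
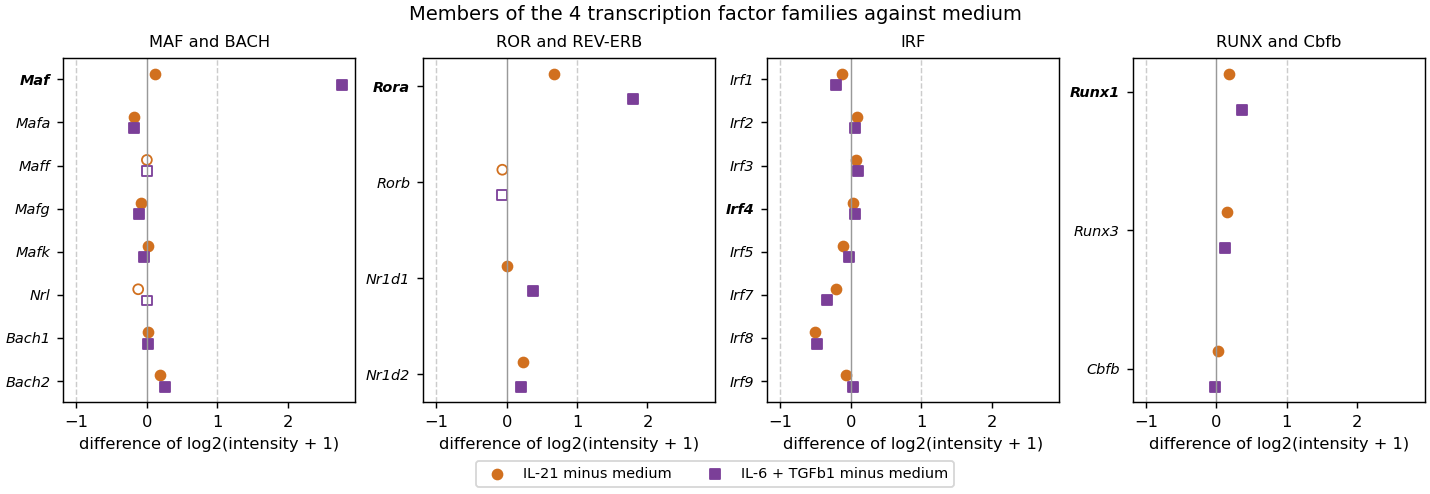
Difference of log2(intensity + 1) from medium for each measured gene of the MAF, ROR, IRF and RUNX families, with circles for IL-21 and squares for IL-6 + TGFb1, names of the 4 described genes in bold, open symbols for genes below the brightness limit and dashed lines at 2-fold. Maf and Rora alone pass a dashed line, both with IL-6 + TGFb1.

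A list of 26 other transcription factors linked to Th17 cells was read beside these genes. Like all lists here, it was chosen with earlier results of these data known. Of the 26 factors 24 were measured and 23 compared. At least 2-fold higher in IL-21 minus medium were 2 of 23, and 0 were lower, with a list median of 0.37. Of all compared genes 0.482% were higher and 0.109% lower. In IL-6 + TGFb1 minus medium 3 of 23 were at least 2-fold higher and 0 lower, with a median of 0.35. The shares of all compared genes there were 0.673% and 0.364%. In IL-21 minus IL-6 + TGFb1 0 were higher and 1 lower, with a median of 0.02, against 0.273% and 0.191% of all compared genes. The medians against medium lay above those of all compared genes, while that between the treated cultures lay near it.

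The genes of this list past 2-fold were Ahr, Fosl2 and Rbpj. Ahr, a ligand-activated factor needed for IL-22, had an intensity of 941 with IL-21, 1950.0 with IL-6 + TGFb1 and 262 with medium, the same order as Rora. Its differences were 1.84 in IL-21 minus medium and -1.05 in IL-21 minus IL-6 + TGFb1. Fosl2, a factor of the AP-1 family, had 1018 with IL-21, 1066 with IL-6 + TGFb1 and 481 with medium, so that both treated cultures were alike. Its difference in IL-21 minus medium was 1.08, and 0.97 after quantile normalization. Rbpj, the DNA-binding partner of Notch, had 3166 with IL-21, 4932 with IL-6 + TGFb1 and 1996 with medium, or 0.67 and 1.30 over medium. Its dim second probe set gave -0.11 in both, so that the mean of both probe sets left it short of 2-fold, at 0.60, in IL-6 + TGFb1 minus medium.

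The partners of IRF4 at shared DNA elements, Batf and Junb, differed from medium by 0.46 and 0.50 with IL-21 and by 0.35 and 0.44 with IL-6 + TGFb1, more than Irf4 itself. Stat3, which carries the signal of both IL-21 and IL-6, had 0.33 with IL-21 and 0.31 with IL-6 + TGFb1. Smad3, a mediator of TGF-beta signals, had 0.50 with IL-21 and 0.92 with IL-6 + TGFb1. The genes of the list nearest to 0 over all comparisons were Lef1 and Ikzf1, factors of early lymphocytes, with sizes of at most 0.03.

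Maf and Rora differed between the treated cultures beside several of the effector genes of Th17 cells. Of 17 listed effector and receptor genes 14 were measured and 11 compared, and 4 of these, Il17f, Il23r, Ccr6 and Il9, were past 2-fold lower in IL-21 minus IL-6 + TGFb1. Il21, Il23r and Il24 (1.06), 3 of the 11, were past 2-fold on the higher side in IL-21 minus medium, and in IL-6 + TGFb1 minus medium 4, Il21, Il23r, Il17f and Il9. Of all compared genes at most 0.673% fell in any of these classes. The list median was 0.05 in IL-21 minus medium, 0.65 in IL-6 + TGFb1 minus medium and -0.71 in IL-21 minus IL-6 + TGFb1. Il17f, Il17a and Ccl20 passed the brightness limit with IL-6 + TGFb1 alone, and Il24 with IL-21 alone. This fixed the side of 0 on which they lay in comparisons with that culture. With no limit the medians were 0.06, 0.53 and -0.44 in the same order. Il17f, which encodes IL-17F, had an intensity of 185 with IL-21, 1896 with IL-6 + TGFb1 and 160 with medium, a profile like that of Maf. Il23r, a receptor subunit gene for IL-23, had 418 with IL-21, 1596 with IL-6 + TGFb1 and 77.9 with medium, and so stood above medium with both treatments. Ccr6, the chemokine receptor gene of Th17 cells, had 183 with IL-21, 446 with IL-6 + TGFb1 and 263 with medium. Il17a, the cytokine gene most used to define the lineage, passed the brightness limit with IL-6 + TGFb1 alone, with intensities of 125 with IL-21, 193 with IL-6 + TGFb1 and 175 with medium.

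Lists of genes linked to single factors were read beside the level of the factor, and any action of the factor on them was not tested. Among 8 compared genes linked to ROR proteins, 8 lay below 0 in IL-21 minus IL-6 + TGFb1, where 42.3% of all compared genes did. Of the 8 genes, 3 (Il17f, Il23r and Ccr6) were past 2-fold lower, against 0.191% of all compared genes. They were already counted among the effector genes. The list median was -0.49, also with no brightness limit. Il17f and Il17a passed that limit with IL-6 + TGFb1 alone, which fixed their side of 0 here. The clock genes Arntl and Clock on this list, known targets of ROR and REV-ERB proteins, had 0.62 and 0.20 in IL-21 minus medium, and 0.94 and 0.43 in IL-6 + TGFb1 minus medium. Among 7 compared genes linked to c-Maf, Il4 alone was past 2-fold higher and Il23r alone past 2-fold lower in IL-21 minus IL-6 + TGFb1. The list median was 0.07. The shares of all compared genes in these classes were 0.273% and 0.191%. Il4, a classical c-Maf target, had an intensity of 342 with IL-21, 152 with IL-6 + TGFb1 and 198 with medium. It was thus lowest, and below the brightness limit, where Maf was highest. Il21, on the other hand, had 1780.0 with IL-21 and 3073 with IL-6 + TGFb1, against 43.0 with medium, and was thus high with IL-21, where Maf was near its medium level. Il10 stayed below the brightness limit in every culture.

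**Figure D4:**
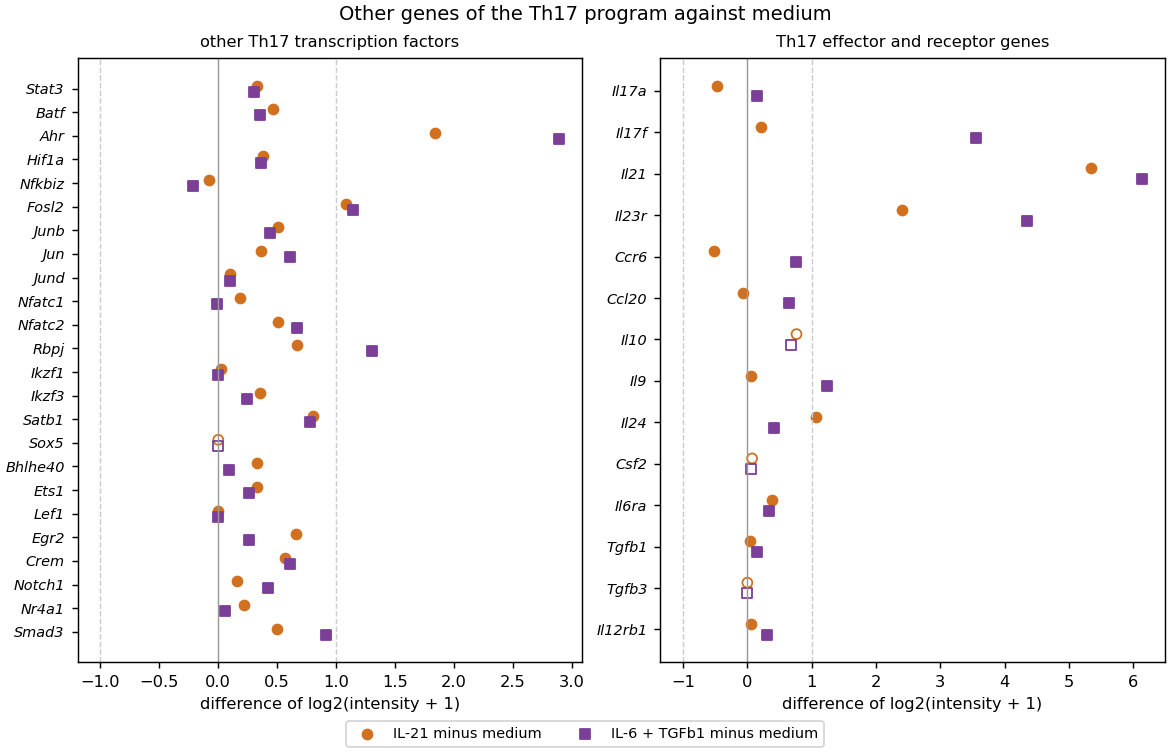
Difference of log2(intensity + 1) from medium for the other Th17 transcription factors and for the Th17 effector and receptor genes, with circles for IL-21 and squares for IL-6 + TGFb1, open symbols for genes below the brightness limit and dashed lines at 2-fold. Ahr and Il21 lie past 2-fold with both treatments, while Il17f lies past it with IL-6 + TGFb1 (3.56) and not with IL-21 (0.21).

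The promoters of Il17a, Il17f and Il23r are shown because ROR proteins bind the letters AGGTCA, usually after an A/T-rich stretch, and these effector genes are linked to them. The 250 bases before the start of the gene were taken from RefSeq, build GRCm38.p6, and printed 5′ to 3′ on the strand of the gene, with AGGTCA or its reverse complement in capitals. Il17a lies on the plus strand at chr1:20730655-20730904, Il17f on the minus strand at chr1:20784271-20784520 and Il23r on the minus strand at chr6:67491856-67492105.
Il17a: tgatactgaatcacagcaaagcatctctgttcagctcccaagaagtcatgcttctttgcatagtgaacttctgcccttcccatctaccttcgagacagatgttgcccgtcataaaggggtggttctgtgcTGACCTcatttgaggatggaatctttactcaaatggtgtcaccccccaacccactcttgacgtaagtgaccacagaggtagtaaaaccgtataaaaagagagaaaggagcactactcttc
Il17f: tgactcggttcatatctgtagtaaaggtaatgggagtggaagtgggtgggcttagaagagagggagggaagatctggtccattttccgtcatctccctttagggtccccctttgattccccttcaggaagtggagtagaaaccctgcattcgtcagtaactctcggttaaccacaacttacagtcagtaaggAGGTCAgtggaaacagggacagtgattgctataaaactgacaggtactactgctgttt
Il23r: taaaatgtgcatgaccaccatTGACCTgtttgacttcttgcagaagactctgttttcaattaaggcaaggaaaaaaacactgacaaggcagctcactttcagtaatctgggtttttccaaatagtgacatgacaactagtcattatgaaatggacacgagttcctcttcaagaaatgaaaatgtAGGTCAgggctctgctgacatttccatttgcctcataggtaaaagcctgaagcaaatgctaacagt
The letters AGGTCA, on either strand, were found in 14.0% of all 32851 promoters of this length. They were found once in Il17a, on the reverse strand at 120 to 115 bases before the start, once in Il17f at 58 to 53 bases, and at 2 places in Il23r, 229 to 224 and 66 to 61 bases before the start. In Il17a they overlap a TGCTGA, the core letters bound by MAF proteins, which 16.1% of promoters hold, and Il23r and Il21 also have a TGCTGA each. TGTGGT, the core letters bound by RUNX proteins, was found in Il17a and Il17f and in 14.0% of all promoters. None of these 3 motifs was found on either strand in the 250 bases before Rora, Irf4 or the 2 starts of Runx1. In all, 8 promoters of 7 genes were searched, and those printed were chosen because they hold AGGTCA. A match is a string of letters and not a measured binding site.

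The genes whose profile over the 3 cultures was most like that of Maf and Rora were found by the Euclidean distance between log2 values centred on the mean of the gene. Over 3 points this describes the shape of the profile alone. The 5 nearest to Maf were Emp1, a membrane protein gene (distance 0.51), the kinase gene Alpk2 (0.53), the metalloproteinase inhibitor gene Timp1 (0.55), Il17f (0.61) and the transporter gene Slc4a11 (0.81). Emp1, the nearest, had an intensity of 280 with IL-21, 1188 with IL-6 + TGFb1 and 162 with medium, so that unlike Maf it was also above medium with IL-21, by 0.79. The closest in the IL-21 culture was Slc4a11, at 0.08 over medium, but it reached 1.75 with IL-6 + TGFb1, against 2.77 for Maf. Alpk2, Timp1 and Il17f passed the brightness limit with IL-6 + TGFb1 alone, which fixed that culture as their highest.

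The 5 nearest to Rora lay closer, at distances of 0.05 to 0.33, and were the protease inhibitor gene Serpinb1a, the lipopolysaccharide-binding protein gene Lbp, the spermine oxidase gene Smox, the carboxypeptidase gene Cpd and the LIM domain gene Lpp. Serpinb1a had an intensity of 149 with IL-21, 316 with IL-6 + TGFb1 and 95.3 with medium. It passed the brightness limit with IL-6 + TGFb1 alone, which fixed that culture as its highest. Its differences of 0.64, 1.72 and -1.08 in the 3 comparisons were each within 0.1 of those of Rora. Lpp has 3 probe sets, of which the brightest gave 1.54 in IL-6 + TGFb1 minus medium and the others 0.65 and 0.16.

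The label of CD4+ T cells was set against marker genes. All 7 measured T cell markers, Cd4 and the CD3 chains among them, were bright, with a summed intensity of 29834 with IL-21, 29175 with IL-6 + TGFb1 and 27794 with medium. Maf and Irf8 are also expressed by macrophages and dendritic cells. Of 6 myeloid markers 0 passed the brightness limit, and their sum was 623 with IL-21, 599.6 with IL-6 + TGFb1 and 608 with medium. Of 5 dendritic cell markers only Zbtb46 passed, with a list sum of 597 with IL-21, 634 with IL-6 + TGFb1 and 657 with medium. Of 5 measured B cell markers only Cd79b passed, with a sum of 866 with IL-21, 859 with IL-6 + TGFb1 and 846 with medium. The 4 NK cell markers, all below the limit, summed to 266 with IL-21, 344 with IL-6 + TGFb1 and 235 with medium, mostly through Klrd1, and the part of such cells in the results was not tested. Of 2 CD8 T cell markers only Cd8b1 passed, with 731 with IL-21, 616 with IL-6 + TGFb1 and 810.4 with medium. Cd8a was below the limit, with 145 with IL-21, 155 with IL-6 + TGFb1 and 163 with medium. The 4 measured markers of naive T cells all passed, with a sum of 8418 with IL-21, 9542 with IL-6 + TGFb1 and 8615 with medium. Among them S1pr1, the receptor gene for lymph node exit, had 393 with IL-21, 595 with IL-6 + TGFb1 and 273 with medium, a difference of 1.12 in IL-6 + TGFb1 minus medium, and Il7r had 0.89. S1pr1 and Il7r moved in the same order as Rora, while Ccr7 and Klf2 did not. Ccr7, the brightest, had 6060 with IL-21, 6681 with IL-6 + TGFb1 and 6927 with medium. Klf2 had 483 with IL-21, 438 with IL-6 + TGFb1 and 425 with medium. The part of these naive markers in the results was not tested. No marker was at 0, since the lowest intensity of any probe set was 25.5. In whole cultures, more cells that express a gene and more RNA of it per cell cannot be told apart.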

How the data were processed

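The authors deposited 1 intensity for each of 28815 probe sets on each of 3 arrays. Per the labels' protocols, RNA was fragmented and biotinylated with a whole-transcript Affymetrix kit, and a service company did the hybridization. The submitters' processing notes name build mm8, whose coordinates were not used. In the sources used here, the method of summary and normalization is not given. The deposited intensities of 2908 probe sets were identical on the 3 arrays.

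Groups were taken from the labels. Of the probe sets, 21780 had 1 symbol in the platform annotation, 1605 had several and 5430 had none listed. Of the first, 21689 matched the RefSeq gene table (GRCm38.p6, names alone) by Entrez identifier, with 0 symbols changed. Promoters were read from a RefSeq table of the same build. The probe set with the highest mean stood for a gene, and genes with none of 1 symbol were not analysed here. Differences of log2(intensity + 1) were taken with no further normalization. Python 3.11.15, numpy 2.4.6 and pandas 2.3.3 were used, and the calculation was tested on simulated arrays. Without replicates no test was made.

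The 4 genes and all lists were chosen with earlier results of these data known. Named by rule were these genes, their measured relatives, listed genes past 2-fold, the 2 other Th17 factors nearest to 0 and the 5 nearest profiles. Other genes were named after their values were seen. The alternatives were a pseudocount of 16, a floor at the 20th percentile of all values, quantile normalization, centring on the median, the mean of all probe sets, and no or a stricter brightness limit (the 75th percentile, 785). The number of arrays limits the precision.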

Additional observations from a re-analysis of the deposited data

How the results depend on the processing

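All 84 recomputed differences of Maf, Rora, Irf4 and Runx1, under 7 alternatives in 3 comparisons, stayed on their side of 2-fold and moved by less than the 95th percentile of the probe set gap. Maf ran from 2.70 to 2.79 in IL-6 + TGFb1 minus medium and from 0.09 to 0.18 in IL-21 minus medium, and Rora from 1.74 to 1.82 and from 0.60 to 0.74. Runx1 ran from 0.29 to 0.38 and from 0.09 to 0.25, its lowest under quantile normalization and its highest under median centring. Irf4 ran from 0.03 to 0.09 in IL-21 minus medium and from 0.06 to 0.08 in IL-6 + TGFb1 minus medium. Irf4 in IL-21 minus IL-6 + TGFb1 ran from -0.04 to 0.01. Each of the 4 genes has 1 probe set, passes every brightness limit and lies above the floor of 69 on every array. Therefore 4 of the 7 alternatives cannot move them. The stricter brightness limit tests fewer genes and left 27 genes at least 2-fold higher in IL-21 minus medium, 42 higher in IL-6 + TGFb1 minus medium, and 11 lower in IL-21 minus IL-6 + TGFb1. The other 39 recomputed counts were within 1.5 times.

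Of the list medians 177 moved by less than the median probe set gap and 24 by more. In IL-21 minus medium, quantile normalization gave -0.062 for the MAF family, -0.16 for the IRF family, 0.55 for c-Maf, 0.069 for ROR and 0.37 for IRF4 target genes. With no brightness limit the ROR and REV-ERB group had 0.12 and IRF4 targets 0.61, and with the stricter limit effector genes had 0.30, c-Maf targets 0.34 and IRF4 targets 0.97. In IL-6 + TGFb1 minus medium, no limit gave 0.29 for the ROR and REV-ERB group, 0.53 for effector genes, 0.25 for c-Maf and 0.56 for IRF4 targets. There the stricter limit gave 1.95 for effector genes, 0.25 for c-Maf targets and -0.40 for factors of other lineages. In IL-21 minus IL-6 + TGFb1, no limit gave -0.18 for the ROR and REV-ERB group, -0.44 for effector genes and 0.24 for factors of other lineages. The stricter limit gave -0.52 for effector genes, -0.10 for c-Maf targets and 0.33 for factors of other lineages, and a pseudocount of 16 gave -0.65 for effector genes. Limits change which genes enter a list, and the cause of the other shifts was not tested. Il24 fell short of 2-fold with a pseudocount of 16, at 0.97 in IL-21 minus medium.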

Other observations

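Transcription factors of other helper T cell lineages were read on the same arrays, 14 of them measured and 13 compared. In IL-6 + TGFb1 minus medium 0 were at least 2-fold higher and 2, Eomes and Gata3, at least 2-fold lower, with a list median of -0.32. Of all compared genes 0.673% were higher and 0.364% lower by this measure, with a median of 0.02. In IL-21 minus medium 1, Eomes, was at least 2-fold lower, against 0.109% of all compared genes. The list median was 0.07 there, against 0.04. Gata3, the main Th2 factor, had an intensity of 2451 with IL-21, 453 with IL-6 + TGFb1 and 1513 with medium, so that the culture with the highest Maf had the lowest Gata3. Tbx21, which encodes the Th1 factor T-bet, had 2842 with IL-21, 1967 with IL-6 + TGFb1 and 2730.3 with medium. Stat4, which carries IL-12 signals, had a like profile, with 4046 with IL-21, 2771 with IL-6 + TGFb1 and 3661 with medium. Both were short of 2-fold.

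Among 7 compared genes linked to IRF4, whose own transcript was within 0.1 of medium, Il21 was past 2-fold higher with both treatments and Il9 with IL-6 + TGFb1. Both were already counted among the effector genes. Of all compared genes 0.482% were past 2-fold higher with IL-21 and 0.673% with IL-6 + TGFb1. The IRF4 list had medians of 0.46 in IL-21 minus medium, 0.48 in IL-6 + TGFb1 minus medium and 0.11 in IL-21 minus IL-6 + TGFb1. Those of all compared genes were 0.04, 0.02 and 0.00 in the same order. Any action of IRF4 on these genes was not tested. Gzmb, which encodes granzyme B, had an intensity of 4818 with IL-21, 3430.5 with IL-6 + TGFb1 and 2460.5 with medium. Its difference in IL-21 minus medium was 0.97, and 1.04 with each array centred on its median.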
